A study of Mus musculus with 36 samples.

Results

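Transcripts of 10 genes that carry cells through S phase and mitosis were followed in mouse embryonic fibroblast (MEF) cells: the cyclins Ccne1, Ccne2, Ccna2, Ccnb1 and Ccnb2, the kinases Cdk1, Plk1 and Aurka, the phosphatase Cdc25c and the ubiquitin ligase activator Cdc20. They were picked by symbol from the 54842 genes of the count table and matched to gene identifiers in the GENCODE M21 annotation. All 10 passed the filter on low counts, with at least 297 counts in every library, and were tested together with 28536 genes. The cells carried a doxycycline-inducible dCas9, a Cas9 without nuclease activity, with a guide RNA against the major satellite repeats (MSR) of mouse pericentric heterochromatin. The MSR-dCas9-Control line expressed dCas9 alone, and the MSR-dCas9-Activator line expressed dCas9 fused to the transcriptional activator VPR with the same guide. Both lines were made by PiggyBac transposition, selected with hygromycin and kept as mixed cultures, so neither is a clone, and libraries of the MSR-dCas9-Repressor line were not analysed here. Each line was sampled before induction, at the end of induction (doxycycline, 10 ng/ml) and at 3, 6, 12 and 24 h of washout, with 3 replicates in each of the 12 groups. Doxycycline was given for 24 h to MSR-dCas9-Control and for 6 h to MSR-dCas9-Activator, so the effector and the length of exposure cannot be told apart.

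Progress through the cell cycle rests on cyclins that are made and destroyed in turn and that switch on cyclin-dependent kinases. Cyclin E starts DNA replication, cyclin A serves S phase and G2, and cyclin B with CDK1 drives entry into mitosis, after which the anaphase-promoting complex (APC/C) with CDC20 marks cyclin B for destruction. Genes of S phase entry are typically controlled by E2F factors at the G1 to S transition, while those of G2 and mitosis peak later through CCAAT boxes, bound by NF-Y, and cell cycle homology regions, bound by MuvB complexes. In bulk RNA a lower share of cells in the phase that expresses a gene and less of its RNA per cell cannot be told apart.

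Genes held a median of 42865961 counts per library (from 27376846 to 57371803). Of the 8 fibroblast markers, among them Col1a1 and Vim, none was at 0 throughout, and their summed level was 16620 to 25880 CPM (counts scaled to library depth) in the MSR-dCas9-Control line and 6216 to 26010 CPM in the MSR-dCas9-Activator line. The 3 endothelial markers summed to at most 0.946 CPM in MSR-dCas9-Control and reached 32.5 CPM in MSR-dCas9-Activator, and the 4 liver markers reached 0.144 and 7.30 CPM. Lists for epithelium, blood, brain, testis and skeletal muscle summed to at most 46.3 CPM in any library. Krt5, Hba-a1, Hbb-bs and Myh2 were at 0 in all MSR-dCas9-Control libraries and Hbb-bs also in all of MSR-dCas9-Activator. These sums are far below that of the fibroblast list, and their part in the results was not tested. One set of libraries stood apart: replicate 2 of the MSR-dCas9-Activator line had the lowest level of the 3 replicates in 53 of 60 combinations of gene and time point, against 28 of 60 for replicate 2 of MSR-dCas9-Control. The results are therefore also given without replicate 2.

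Promoter windows were searched for CCAAT boxes, cell cycle homology regions and E2F sites. RefSeq windows (GRCm38.p6) running from 250 bases before to 50 bases after the annotated start were used for 7 of the 10 members. Ccne2, Ccna2 and Cdc25c were left out of the search, which does not show that they lack a RefSeq window or these motifs. The 4 windows below are the S phase cyclin Ccne1 (chr7:38107441-38107740, minus strand) and the 3 components of the mitotic cyclin B kinase, Ccnb1 (chr13:100786437-100786736, minus strand), Ccnb2 (chr9:70421505-70421804, minus strand) and Cdk1 (chr10:69352863-69353162, minus strand). They are written 5′ to 3′ along the gene, and capitals mark CCAAT boxes, cell cycle homology regions and E2F sites on either strand.
Ccne1: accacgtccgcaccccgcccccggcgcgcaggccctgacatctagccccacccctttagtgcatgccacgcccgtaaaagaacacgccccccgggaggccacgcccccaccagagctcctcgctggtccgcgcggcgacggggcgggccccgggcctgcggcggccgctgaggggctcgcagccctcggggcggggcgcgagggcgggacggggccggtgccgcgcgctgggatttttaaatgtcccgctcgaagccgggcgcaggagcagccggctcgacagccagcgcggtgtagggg
Ccnb1: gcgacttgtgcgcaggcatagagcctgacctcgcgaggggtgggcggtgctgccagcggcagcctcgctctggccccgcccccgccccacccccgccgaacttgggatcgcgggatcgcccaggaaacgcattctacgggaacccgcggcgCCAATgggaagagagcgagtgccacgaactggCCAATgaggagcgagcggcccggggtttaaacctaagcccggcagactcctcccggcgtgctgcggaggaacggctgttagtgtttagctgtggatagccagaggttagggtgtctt
Ccnb2: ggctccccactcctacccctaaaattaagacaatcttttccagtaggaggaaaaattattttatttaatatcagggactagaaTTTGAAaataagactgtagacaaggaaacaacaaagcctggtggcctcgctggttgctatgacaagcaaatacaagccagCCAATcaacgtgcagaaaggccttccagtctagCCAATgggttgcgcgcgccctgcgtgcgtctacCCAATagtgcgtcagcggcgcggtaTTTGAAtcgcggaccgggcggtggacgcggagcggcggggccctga
Cdk1: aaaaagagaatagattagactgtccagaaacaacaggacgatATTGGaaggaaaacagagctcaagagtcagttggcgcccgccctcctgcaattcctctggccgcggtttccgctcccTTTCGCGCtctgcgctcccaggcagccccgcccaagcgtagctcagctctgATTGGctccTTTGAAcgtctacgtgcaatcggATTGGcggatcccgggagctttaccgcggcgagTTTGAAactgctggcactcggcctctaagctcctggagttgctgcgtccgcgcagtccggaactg

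The CCAAT box (CCAAT on either strand) was found in 6 of the 7 members' windows and in 37.4% of 32851 promoter windows of the same length. The cell cycle homology region, searched as TTTGAA or TTCGAA, was found in 5 of the 7 and in 19.2% of all windows. An E2F site, searched as TTTGGCGC, TTTGCCGC, TTTCGCGC or TTTCCCGC, was found in 1 of the 7, Cdk1, and in 2.26% of all windows. Ccne1 held none of these letters, which says only that they are not in this window. In Ccnb1, Cdk1 and Aurka a pair of CCAAT boxes lay 32 bases apart, and the 3 boxes of Ccnb2 followed each other at 33 bases. The pair in Cdc20 was 45 bases apart. A match is a description of the sequence and no evidence of binding.

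**Figure D1:**
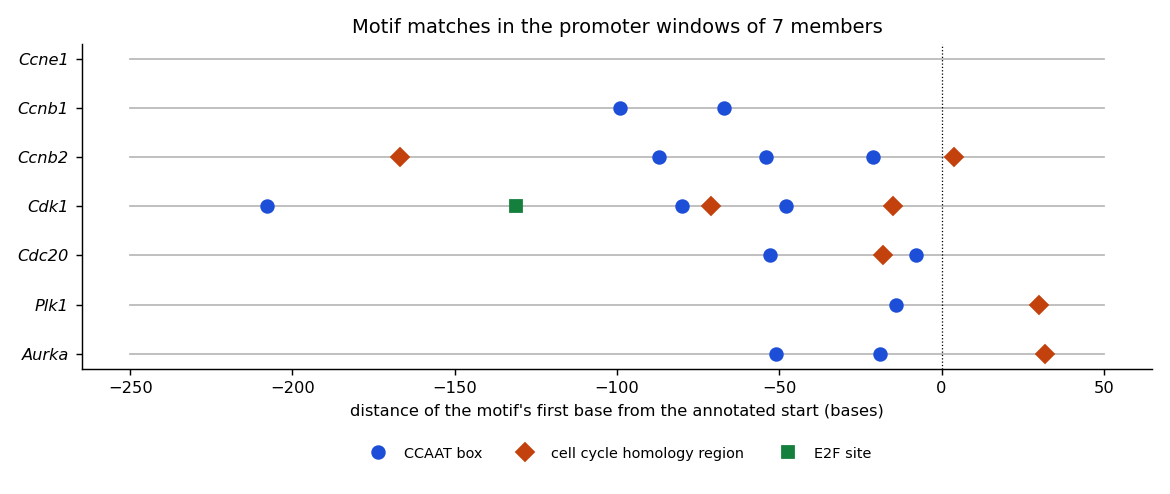
Positions of motif matches in the promoter windows of 7 members. The x axis gives the distance in bases of a match's first base from the annotated start, each grey line is 1 window, and symbols mark CCAAT boxes, cell cycle homology regions and an E2F site. CCAAT boxes appear in 6 of the 7 windows, and Ccne1 has no match.

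The central question was how these transcripts moved after MSR-dCas9-Activator had been induced and the doxycycline withdrawn. Ccne1 and Ccna2 fell steadily from induction to 12 h. The mitotic genes followed another course: on the scale of total gene counts, with factors from the trimmed mean of M values (TMM), Aurka, Ccnb2, Cdc25c, Ccnb1 and Cdc20 were higher in MSR-dCas9-Activator than in MSR-dCas9-Control at 3 h, and by 24 h none was. Scaling to the 13 mitochondrially encoded mRNAs removes these calls of a rise and turns the 3 h difference of Ccnb1, Cdk1 and Cdc20 below 0. The share of these mRNAs in gene counts itself differed, at 2.02% to 2.98% in MSR-dCas9-Activator and 1.61% to 1.84% in MSR-dCas9-Control at 3 h. A higher share lowers the scaled values of all genes in that line, and which scale is nearer to RNA per cell was not tested. In MSR-dCas9-Control the highest group mean of a member was 1.13 to 1.56 times its lowest, and in MSR-dCas9-Activator 1.63 to 3.38 times.

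**Figure D2:**
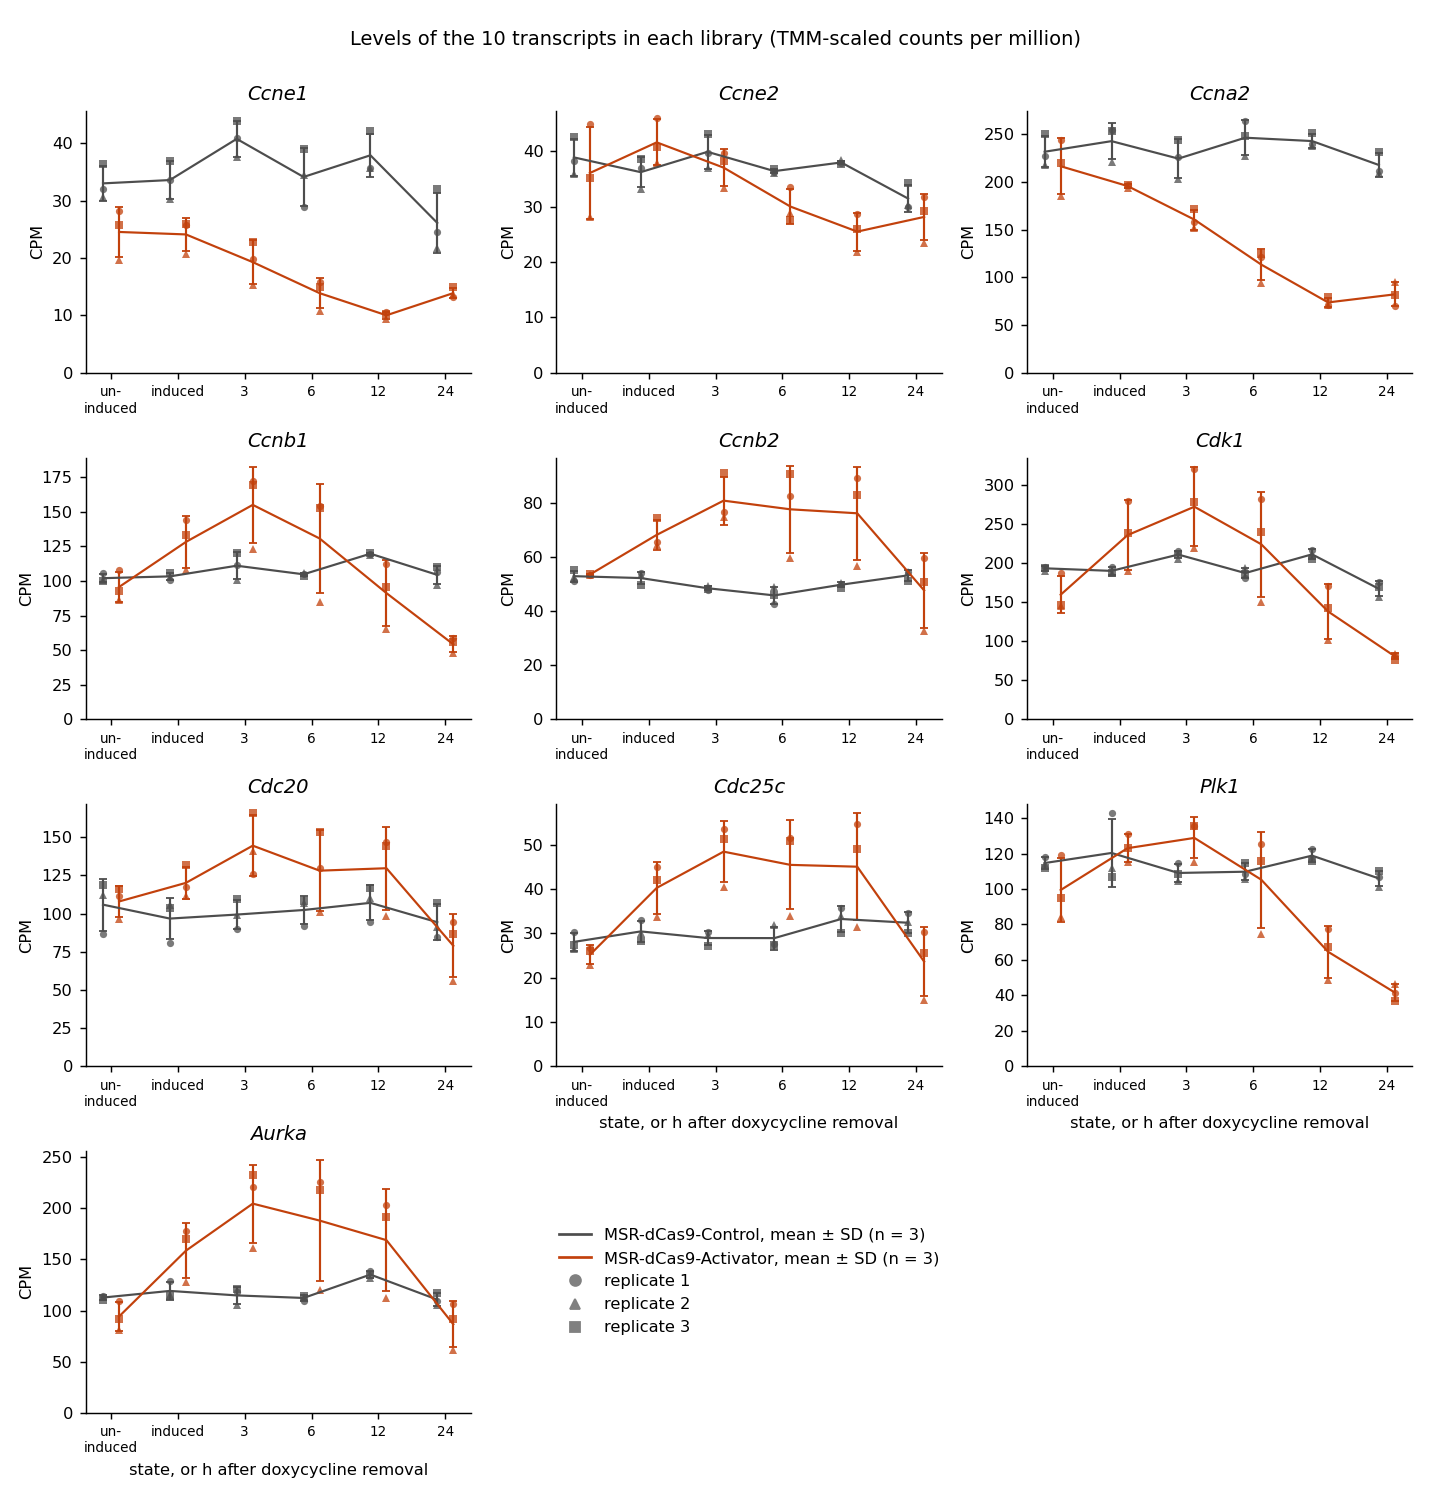
Levels of the 10 members in every library, in CPM with TMM factors, from uninduced cells to 24 h after doxycycline removal. Points are libraries (circle, triangle and square for replicates 1, 2 and 3), lines join group means and bars are the SD of 3 replicates. In MSR-dCas9-Control group means move by at most 1.56-fold, for Ccne1, while in MSR-dCas9-Activator Ccne1 and Ccna2 fall to 12 h and Cdk1, Plk1 and Ccnb1 end lowest at 24 h, with replicate 2 the lowest point in most panels.

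The lines were compared at each time point in edgeR (quasi-likelihood F test), p-values were adjusted over all genes by the Benjamini-Hochberg method, and a member passed with an adjusted p under 0.05. In uninduced cells 1 member, Ccne1, was lower in MSR-dCas9-Activator and 0 were higher, where 0.343% of all genes were lower and 0.883% higher. Upon induction 2 were lower and 4 higher, beside 25.5% and 31.7% of all genes. At 3 h 2 were lower and 6 higher (31.4% and 39.6% of all genes), and at 6 h 3 were lower and 4 higher (33.3% and 40.8%). At 12 h 6 were lower and 2 higher (34.1% and 41.1%), and at 24 h 7 were lower and 0 higher (29.4% and 34.5%). On this TMM scale the members' counts were near the shares of all genes upon induction and at 6 h. More members were higher than lower at 3 h, and more were lower than higher at 12 and 24 h. In all genes the share of rises stayed above that of falls at each time point.

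These splits depend on the scale. The median difference of all tested genes was 0.03, 0.10, 0.16, 0.13, 0.12 and 0.01 on the log2 scale from uninduced to 24 h with TMM, and 0.04, -0.25, -0.44, -0.58, -0.49 and -0.18 with mitochondrial scaling. On the mitochondrial scale no member was higher at any time point, and 3, 4, 7, 8 and 9 members were lower upon induction and at 3, 6, 12 and 24 h. All genes shifted with them: 35.2%, 47.6%, 51.9%, 48.5% and 30.8% were lower at these times. The shares higher were 20.4%, 23.5%, 24%, 28.1% and 28.4%. Upon induction and at 3 h the counts of lower members lay near the shares of lower genes. A scaling moves all genes of a library together, so the difference from the median gene hardly depends on it. At 3 h Aurka lay 0.66 above the median gene under both scalings, and at 12 h Ccne1 lay 2.04 below it with TMM and 2.02 below it with mitochondrial scaling. DESeq2 size factors moved the split the other way, to 2 lower and 7 higher upon induction, 2 and 6 at 6 h and 5 and 4 at 12 h.

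Replicate 2 also weighed on the splits. Without it 0 members passed in uninduced cells, 1 was lower and 7 higher upon induction, 2 lower and 7 higher at 3 h and at 6 h, 5 lower and 4 higher at 12 h, and 5 lower and 0 higher at 24 h. Shares of all genes without replicate 2 are not given, so these splits are not set against them. Without replicate 3 of every group the rises of Ccnb1, Cdk1 and Cdc20 at 3 h and of Cdc25c at 6 h did not pass (0.46, 0.33, 0.50 and 0.48). Under the study's own limits for genes, a mean above 100 and a change of more than 2-fold besides the adjusted p, 1, 2, 2 and 3 members were lower at 3, 6, 12 and 24 h, beside 9.4%, 10.2%, 10.9% and 4.1% of all genes. The 3 members at 24 h were Ccna2, Cdk1 and Plk1.

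**Figure D3:**
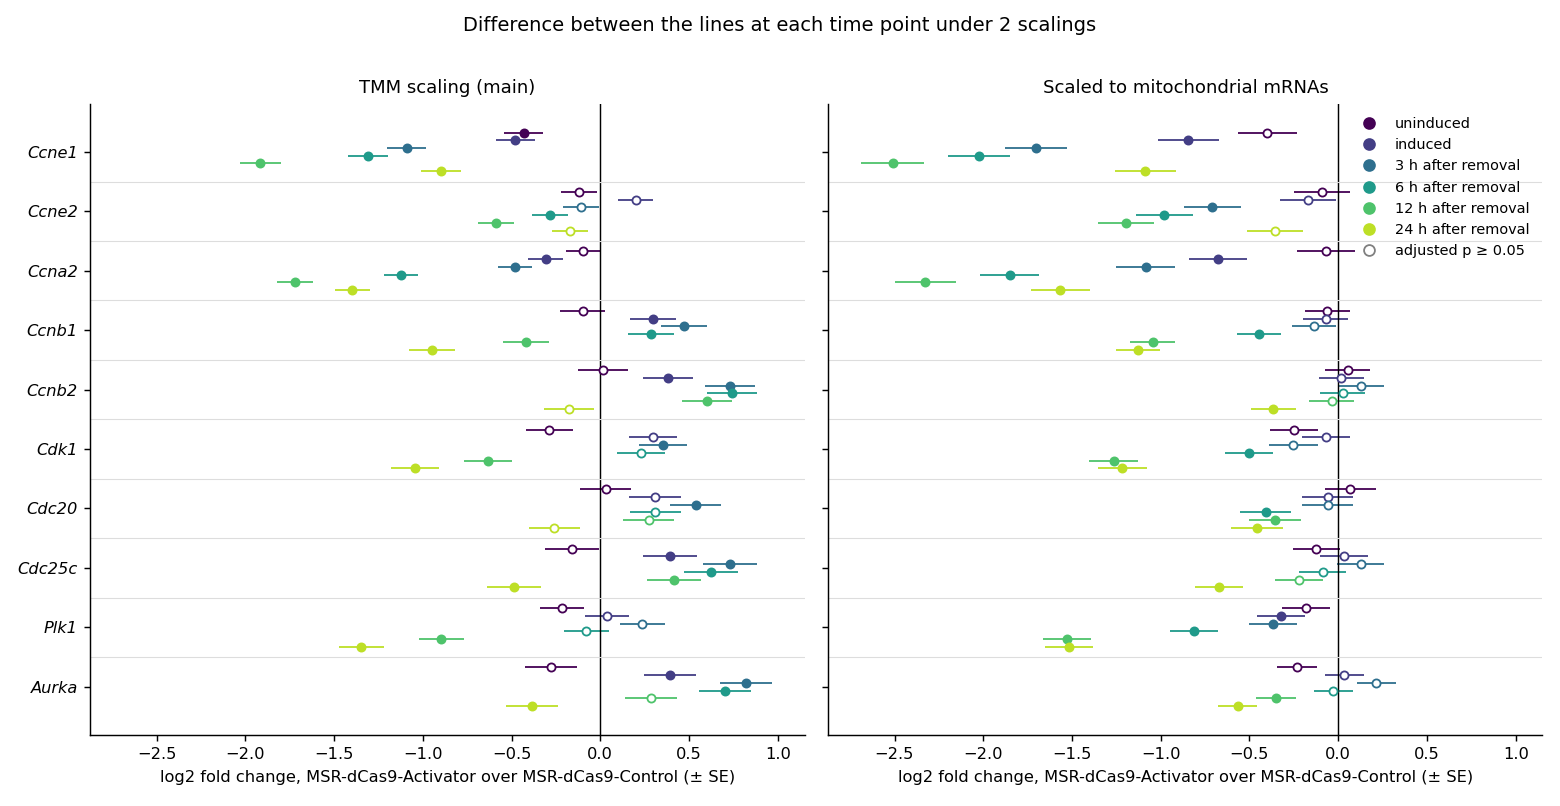
Difference between the lines for each member, as log2 fold change of MSR-dCas9-Activator over MSR-dCas9-Control with SE, at the 6 time points (colours). The left panel uses TMM scaling and the right panel scaling to mitochondrial mRNAs; open circles did not pass an adjusted p of 0.05. Values right of 0 at induction to 12 h in the left panel lie at or left of 0 in the right panel or do not pass there, while the falls of Ccne1 and Ccna2 from induction to 24 h pass in both.

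Cyclin E1, which with CDK2 fires replication origins, was lower in the MSR-dCas9-Activator line at each time point. In uninduced cells Ccne1 had 32.0, 30.6 and 36.4 CPM in the MSR-dCas9-Control replicates and 28.2, 19.8 and 25.8 CPM in MSR-dCas9-Activator. The groups did not overlap even there, a difference of -0.43 ± 0.11 on the log2 scale (adjusted p = 0.0385), but this call was lost on leaving out any one of 5 of the 6 libraries (-0.55 to -0.36). At 12 h the replicates had 35.8, 35.8 and 42.3 CPM against 10.5, 9.34 and 10.2 CPM. All MSR-dCas9-Activator libraries lay far below the lowest MSR-dCas9-Control library, at 0.265 of the MSR-dCas9-Control level in the fit. The difference grew from -0.48 ± 0.11 upon induction to -1.09 ± 0.11 at 3 h, -1.31 ± 0.11 at 6 h and -1.91 ± 0.11 at 12 h (adjusted p = 1.93e-14), and was -0.90 ± 0.11 at 24 h. Within the MSR-dCas9-Activator line Ccne1 rose by 0.47 ± 0.11 from 12 to 24 h (adjusted p = 0.0022, lost without replicate 3 of every group, where it was 0.44), while in MSR-dCas9-Control it fell by 0.55 ± 0.11 over the same interval (adjusted p = 0.0167).

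Cyclin E2, the paralog with the same partner kinase, moved far less. Ccne2 had 37.8, 38.3 and 37.7 CPM in MSR-dCas9-Control at 12 h and 28.6, 21.8 and 26.0 CPM in MSR-dCas9-Activator. The groups were apart at 6 h and 12 h and overlapped at the other time points. The difference was -0.28 ± 0.10 at 6 h (adjusted p = 0.014), a call lost without Control 6 h replicate 2 or 3 or Activator 6 h replicate 3 (-0.15 at the smallest), with DESeq2 or its size factors (-0.11), with the libraries of 6 h alone (-0.16) or with no replicate block (-0.28), and -0.59 ± 0.10 at 12 h (adjusted p = 8.78e-06), which held without any one library. At 24 h it was -0.17 ± 0.10 (adjusted p = 0.144). An exon of Ccne2 overlaps Ints8 on the opposite strand, the strand setting of the counting is not stated in the sources used here, and Ints8 differed by -0.43 ± 0.07 at 12 h.

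Cyclin A2, the partner of CDK2 in S phase and of CDK1 in G2, fell further below MSR-dCas9-Control at each step from induction to 12 h. Ccna2 had 226.8, 218.1 and 249.9 CPM in uninduced MSR-dCas9-Control and 243.5, 185.6 and 220.1 CPM in uninduced MSR-dCas9-Activator. The lines overlapped then and were apart at all later time points. At 12 h MSR-dCas9-Control had 240.1, 237.4 and 251.0 CPM and MSR-dCas9-Activator 70.6, 71.04 and 79.6 CPM. The difference was -0.31 ± 0.10 upon induction, -0.48 ± 0.10 at 3 h, -1.12 ± 0.10 at 6 h, -1.72 ± 0.10 at 12 h (adjusted p = 1.27e-14) and -1.40 ± 0.10 at 24 h. The 5 calls held without any one library and under the 6 other settings of scaling, filter, test and block. The call upon induction was lost on leaving out replicate 1, 2 or 3 of every group (-0.28, -0.20 and -0.28). Between 12 and 24 h Ccna2 changed by 0.16 ± 0.10 within the MSR-dCas9-Activator line (adjusted p = 0.178), and it passed as a rise with library size (0.40) and mitochondrial scaling (0.48). An exon of Ccna2 overlaps Exosc9 on the opposite strand, which differed by -0.46 ± 0.10 at 12 h.

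Cyclin B1, the main mitotic partner of CDK1, went up and then down. Ccnb1 had 111.7, 101.1 and 120.4 CPM in MSR-dCas9-Control at 3 h and 172.5, 123.5 and 169.5 CPM in MSR-dCas9-Activator. At 24 h the values were 106.3, 97.02 and 110.2 CPM against 58.9, 47.9 and 56.1 CPM. The groups did not overlap at either time, with MSR-dCas9-Activator above at 3 h and below at 24 h. The difference was 0.47 ± 0.13 at 3 h (adjusted p = 0.00181), which became -0.13 on the mitochondrial scale (adjusted p = 0.336). At 12 h it was -0.42 ± 0.13 (adjusted p = 0.00451), a call lost without Activator 12 h replicate 2 (-0.21). The call at 12 h passed in 3 of the 6 other settings. At 24 h the difference was -0.95 ± 0.13 (adjusted p = 3.68e-07). The rises of 0.30 ± 0.13 upon induction and 0.29 ± 0.13 at 6 h passed narrowly (adjusted p = 0.0487 and 0.0454), were lost without any of 4 of their 6 libraries, and were -0.07 and -0.45 on the mitochondrial scale.

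Cyclin B2, the paralog that sits at the Golgi, stayed high for longer. Ccnb2 had 50.2, 50.5 and 48.8 CPM in MSR-dCas9-Control at 12 h and 89.2, 56.7 and 82.9 CPM in MSR-dCas9-Activator. All MSR-dCas9-Activator libraries were above, replicate 2 least. At 24 h the lines overlapped, with 54.4, 54.5 and 51.1 CPM against 59.6, 32.6 and 51.0 CPM. The difference was 0.38 ± 0.14 upon induction, 0.73 ± 0.14 at 3 h, 0.74 ± 0.14 at 6 h and 0.60 ± 0.14 at 12 h (adjusted p = 0.000376), and these values were 0.02, 0.13, 0.03 and -0.04 on the mitochondrial scale, where none passed. The call upon induction was lost without Control induced replicate 1 or 3 or Activator induced replicate 3. At 24 h the difference was -0.18 ± 0.14 (adjusted p = 0.279). Processed copies of both B cyclins are in the table, Ccnb1-ps with a median of 41 counts and Ccnb2-ps with 31, against 4687.5 and 2394.5 for the genes themselves.

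Cdk1, the kinase that the B cyclins activate, followed Ccnb1. It had 215.6, 205.7 and 212.3 CPM in MSR-dCas9-Control at 3 h and 320.2, 219.3 and 278.1 CPM in MSR-dCas9-Activator. At 24 h MSR-dCas9-Control had 175.6, 156.7 and 169.5 CPM and MSR-dCas9-Activator 82.2, 83.6 and 76.4 CPM. The lines were apart at both times, in opposite directions. The difference was 0.35 ± 0.13 at 3 h (adjusted p = 0.0206), a call lost without replicate 1 of either line at 3 h and -0.25 on the mitochondrial scale. It was -0.63 ± 0.13 at 12 h and -1.04 ± 0.14 at 24 h (adjusted p = 1.69e-07), and both of these held without any one library. In uninduced cells all MSR-dCas9-Activator libraries were also below those of MSR-dCas9-Control, by -0.29 ± 0.13, which did not pass (adjusted p = 0.446).

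Cdc25c encodes the phosphatase that removes the inhibitory phosphates from CDK1 at mitotic entry. It had 27.5, 31.9 and 27.3 CPM in MSR-dCas9-Control at 6 h and 51.6, 33.9 and 50.9 CPM in MSR-dCas9-Activator. At 24 h it had 34.6, 32.6 and 30.0 CPM against 30.3, 15.0 and 25.5 CPM. The groups were apart at 6 h and overlapped at 24 h, where replicate 2 was far the lowest. The difference was 0.39 ± 0.15 upon induction, 0.73 ± 0.15 at 3 h, 0.62 ± 0.15 at 6 h and 0.41 ± 0.15 at 12 h, which were 0.03, 0.13, -0.09 and -0.22 on the mitochondrial scale, and at 24 h it was -0.48 ± 0.15 (adjusted p = 0.00709). The call upon induction was lost without replicate 1 or 3 of either line, the call at 12 h without Control 12 h replicate 1 (adjusted p = 0.0155 with all libraries), and the call at 24 h without Activator 24 h replicate 2, where the difference was -0.29. The call at 24 h passed in 3 of the 6 other settings. Gm3550, whose exon overlaps Cdc25c on the opposite strand, had a median of 63 counts and differed by -1.69 ± 0.30 at 12 h.

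Aurora kinase A, which matures centrosomes and activates PLK1, gave the largest rise of the 10 on the TMM scale. Aurka had 118.0, 105.1 and 121.2 CPM in MSR-dCas9-Control at 3 h and 220.6, 161.1 and 232.3 CPM in MSR-dCas9-Activator. All MSR-dCas9-Activator libraries lay above, a difference of 0.82 ± 0.15 (adjusted p = 1.64e-05) that was 0.21 on the mitochondrial scale (adjusted p = 0.0843). At 12 h the lines overlapped, with 138.9, 132.2 and 134.5 CPM against 203.7, 111.8 and 191.3 CPM, and the difference of 0.29 ± 0.15 did not pass (adjusted p = 0.0787). Without Activator replicate 2 the remaining pair at 12 h lay far above all MSR-dCas9-Control libraries. At 24 h the difference was -0.38 ± 0.15 (adjusted p = 0.0245), a call lost without Control 24 h replicate 2 or any of the 3 Activator 24 h libraries (-0.27 at the smallest). Of the 6 other settings the call at 24 h passed in 1, mitochondrial scaling (-0.57).

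Polo-like kinase 1, which promotes mitotic entry, spindle assembly and cytokinesis, showed no rise that passed and had the largest fall of the mitotic genes at 24 h. Plk1 had 114.5, 104.3 and 108.6 CPM in MSR-dCas9-Control at 3 h and 135.8, 115.4 and 135.4 CPM in MSR-dCas9-Activator. The groups did not overlap, but the difference of 0.24 ± 0.13 did not pass (adjusted p = 0.0903), and on the mitochondrial scale it was -0.37 (adjusted p = 0.0165). At 24 h the values were 106.6, 101.2 and 110.1 CPM against 41.1, 46.4 and 37.0 CPM. The difference was -0.90 ± 0.13 at 12 h (adjusted p = 3.3e-07) and -1.35 ± 0.13 at 24 h (adjusted p = 6.55e-10), both of which held without any one library. At 6 h it was -0.08 ± 0.13, and without replicate 2 of every group 0.27 (adjusted p = 0.0181). Gm44985, whose exon overlaps Plk1 on the opposite strand, differed by -1.01 ± 0.13 at 12 h.

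Cdc20, the activator that turns the APC/C against cyclin B at anaphase, passed between the lines at 3 h only on the TMM scale. It had 89.7, 99.1 and 109.2 CPM in MSR-dCas9-Control at 3 h and 126.2, 141.1 and 166.2 CPM in MSR-dCas9-Activator. The groups were apart and the difference was 0.54 ± 0.15 (adjusted p = 0.00172), or -0.06 on the mitochondrial scale. The other values, which did not pass, were 0.31 ± 0.14 upon induction, 0.31 ± 0.14 at 6 h, 0.27 ± 0.14 at 12 h and -0.26 ± 0.15 at 24 h. Upon induction the groups were also apart. On the mitochondrial scale Cdc20 passed as lower at 6, 12 and 24 h (-0.41, -0.36 and -0.46). Elovl1, whose exon overlaps Cdc20 on the opposite strand, differed by -0.89 ± 0.12 at 12 h.

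Changes within each line were compared next, which separates the course of MSR-dCas9-Activator from its starting level. Against uninduced cells of the same line, 0 members fell and 6 rose upon induction in MSR-dCas9-Activator, beside 28% of all genes lower and 32.9% higher. At 3 h 2 fell and 7 rose (33.3% and 39.8% of all genes), and at 6 h 3 fell and 5 rose (33.9% and 40.5%). At 12 h 4 fell and 3 rose (34.9% and 40.2%), and at 24 h 7 fell and 0 rose (28.5% and 34.3%). From 12 to 24 h 7 fell and 1, Ccne1, rose (19.5% and 17.5%). Aurka rose most, by 1.11 ± 0.15 at 3 h (adjusted p = 1.74e-07), and Ccna2 fell most, by 1.55 ± 0.10 at 12 h (adjusted p = 1.37e-13). On the mitochondrial scale 4, 3, 7, 6 and 10 members fell and 0, 2, 0, 2 and 0 rose at the 5 time points, and Ccne2, Ccnb2, Plk1 and Cdc20 turned below 0 at 3 h. Shares of all genes on that scale are given only for differences between the lines at each time point. The within-line counts on that scale are therefore not set against them. From 12 to 24 h library size gave 7 falls and 3 rises and mitochondrial scaling 6 and 3, with Ccna2 and Ccne2 rising beside Ccne1. Without replicate 3 of every group 3 members fell between these times and 0 rose.

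The MSR-dCas9-Control line gives the background of medium change and time in culture. In edgeR's test 0 members changed from uninduced cells upon induction or at 3, 6, 12 or 24 h, beside 0.214%, 0.55%, 0.403%, 1.05% and 0.788% of all genes. At an unadjusted p under 0.05 the counts were 0, 1, 0, 0 and 2, and in DESeq2 1 member passed at 24 h. From 12 to 24 h 1 member fell, Ccne1, beside 0.428% of all genes, and the call was lost on leaving out replicate 1, 2 or 3 of every group.

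Whether the change differed between the lines was tested as an interaction. From uninduced to induced cells 3 members differed, Aurka, Cdk1 and Cdc25c, beside 32.2% of all genes. With mitochondrial scaling 1 member differed, downwards, and without replicate 1 or without replicate 3 of every group 0 differed. From uninduced cells to 12 h 7 differed, beside 51% of all genes. Ccna2 (-1.62 ± 0.14), Ccne1 (-1.48 ± 0.16), Plk1 (-0.68 ± 0.18) and Ccne2 (-0.47 ± 0.14) moved down relative to MSR-dCas9-Control. Ccnb2 (0.58 ± 0.20), Cdc25c (0.57 ± 0.22) and Aurka (0.56 ± 0.21) moved up, and were -0.09, -0.10 and -0.12 on the mitochondrial scale. Without replicate 1 or without replicate 3 of every group 3 of the 7 calls were made. From uninduced cells to 24 h 5 differed, all downwards (33.1% of all genes in either direction), and 2 without replicate 3. From 12 to 24 h 6 differed, beside 15.1% of all genes, and 0 without replicate 3 or 1 without replicate 1. Relative to MSR-dCas9-Control, Ccne1 (1.02 ± 0.16) and Ccne2 (0.42 ± 0.14) moved up between these times. Cdc25c (-0.90 ± 0.22), Ccnb2 (-0.77 ± 0.20), Aurka (-0.67 ± 0.21) and Ccnb1 (-0.53 ± 0.18) moved down relative to it. In MSR-dCas9-Control itself mean Ccne1 went from 37.9 to 26.1 CPM and mean Ccne2 from 38.0 to 31.5 CPM, so part of their differences came from that line. With mitochondrial scaling 3 members moved up relative to MSR-dCas9-Control between these times and 0 passed downwards.

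In an additive model of replicate, time point and line, which averages over the time course, 8 members differed between the lines, beside 82.1% of all genes. Ccne1 (-1.02 ± 0.10), Ccna2 (-0.85 ± 0.12), Plk1 (-0.37 ± 0.11) and Ccne2 (-0.18 ± 0.06) were lower. Ccnb2 (0.38 ± 0.09), Aurka (0.26 ± 0.10), Cdc25c (0.26 ± 0.10) and Cdc20 (0.20 ± 0.07) were higher, and on the mitochondrial scale 9 members were lower and 0 higher. Ccnb1 and Cdk1, whose differences changed sign over the time course, did not pass. Without replicate 3 of every group 4 members passed. This model treats the 18 libraries of a line as independent, with a replicate term shared by both lines. Its SEs therefore do not allow for a replicate that is low in 1 line only, as replicate 2 of MSR-dCas9-Activator was.

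Levels were set against each other per kilobase of exon. In uninduced MSR-dCas9-Control cells Ccna2 (56.7 ± 4.0 CPM per kilobase, SD, n = 3), Cdc20 (56.7 ± 9.1) and Plk1 (52.2 ± 1.5) stood highest and overlapped. Aurka (44.5 ± 0.98), Cdk1 (39.2 ± 0.58), Ccnb2 (34.6 ± 1.4) and Ccnb1 (24.2 ± 0.72) followed, each apart from the next. Ccne1 (12.4 ± 1.1) and Ccne2 (11.1 ± 0.96) overlapped, and Cdc25c was lowest (5.70 ± 0.41). At 12 h in MSR-dCas9-Activator the order was another: Cdc20 (69.4 ± 14.6) and Aurka (66.8 ± 19.7) overlapped at the top, Ccna2 (18.1 ± 1.2) was in the seventh place, and Ccne1 (3.77 ± 0.23) was lowest, apart from Ccne2 (7.29 ± 0.99).

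Ratios of 2 transcripts within a library need no scaling. For 3 against 3 libraries the smallest p of the two-sided exact permutation test is 0.1, so no ratio can pass 0.05. The ratio of Ccnb1 to Ccne1 counts was 2.69 to 2.74 in MSR-dCas9-Control at 3 h and 7.43 to 8.70 in MSR-dCas9-Activator, a log2 difference of 1.57 (exact p = 0.1). The lines were apart from uninduced cells on (0.34). The difference was still 1.49 at 12 h and -0.05 at 24 h (exact p = 0.9), where the lines overlapped. In MSR-dCas9-Activator Ccnb1 had fallen and Ccne1 had regained part of its level, and the mean log2 ratio went from 3.15 to 1.96. In MSR-dCas9-Control it rose over the same interval, from 1.66 to 2.02. The 2 E cyclins parted early. Ccne1 to Ccne2 was 0.838 to 0.857 in MSR-dCas9-Control and 0.628 to 0.733 in MSR-dCas9-Activator before induction, and 0.934 to 1.12 against 0.368 to 0.428 at 12 h, a log2 difference of -1.33 (exact p = 0.1).

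The B cyclins parted later. Ccnb1 to Ccnb2 overlapped between the lines up to 3 h and was apart at 6 h, with 2.16 to 2.46 in MSR-dCas9-Control and 1.43 to 1.86 in MSR-dCas9-Activator. It was 2.36 to 2.47 in MSR-dCas9-Control and 1.16 to 1.26 in MSR-dCas9-Activator at 12 h, a log2 difference of -1.01 (exact p = 0.1), and -0.75 at 24 h. Cdc20 to Ccnb1 overlapped up to 6 h and was higher in MSR-dCas9-Activator at 12 h, by 0.69 on the log2 scale (exact p = 0.1), and at 24 h, by 0.66. Further ratios, chosen after the data were seen and not tested, set mitotic genes against Ccna2. At 12 h Ccnb2 to Ccna2 was 0.194 to 0.213 in MSR-dCas9-Control and 0.798 to 1.26 in MSR-dCas9-Activator, and Aurka to Ccna2 0.536 to 0.578 and 1.57 to 2.88. Cdk1 to Ccna2 was 0.816 to 0.905 and 1.43 to 2.42. So the mitotic transcripts gained on Ccna2 within each MSR-dCas9-Activator library at 12 h, whatever the scale.

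**Figure D4:**
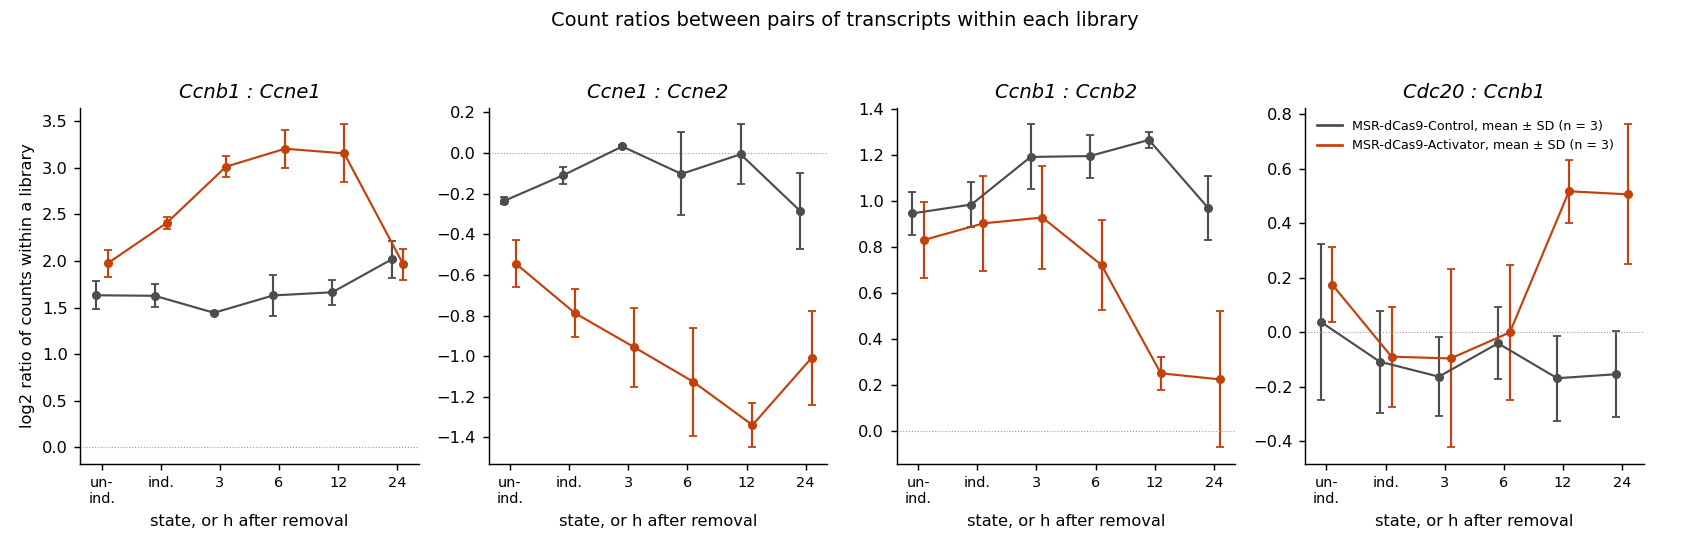
Ratios of counts between 2 members within a library, on a log2 axis, by time point. Points are means of 3 libraries and bars their SD, grey for MSR-dCas9-Control and orange for MSR-dCas9-Activator. Ccnb1 to Ccne1 is apart between the lines from uninduced cells to 12 h, most widely from 3 to 12 h, and overlaps at 24 h, while Ccnb1 to Ccnb2 is apart from 6 h and Cdc20 to Ccnb1 at 12 and 24 h.

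Across the 36 libraries the members fell into patterns, which are given as a description since the libraries share groups and depth. Ccne1 and Ccna2 levels (log2 CPM) had a Pearson correlation of 0.93, Ccnb1 and Cdk1 of 0.97, Cdc25c and Aurka of 0.96, and Cdk1 and Plk1 of 0.93. Ccne1 and Ccnb2 were at -0.49. The genes most like the mean profile of the 10 members, among 13554 with a mean above 100, were Tnpo3 (0.97), Tcp1 (0.96), Kif2c (0.96), Psmd13 (0.96), Eif4g1 (0.96), Anp32b (0.96), Gtse1 (0.96), Shcbp1 (0.96), Kif4 (0.96) and Farsb (0.96). Kif2c and Kif4 encode mitotic kinesins. For Ccne1 apart they were Xpo4 (0.97), Bzw2 (0.97) and Cers5 (0.97), and for Ccne2 Eif4e (0.89), Tuba1c (0.87) and Cd44 (0.86).

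Related genes of the pathway were read from 4 lists. Of the 12 tested CDK partners and regulators (Ccna1 did not pass the filter), 7 were lower and 3 higher at 12 h and 8 lower and 2 higher at 24 h, with a median difference of -1.03 and -0.68 beside 0.12 and 0.01 in all genes. Of all genes 34.1% were lower and 41.1% higher at 12 h, and 29.4% and 34.5% at 24 h. Scaled to mitochondrial mRNAs, 9 were lower and 1 higher at 12 h (48.5% and 28.1% of all genes). Cdc25b, another CDK-activating phosphatase, fell most, from 86.9 ± 1.3 CPM in MSR-dCas9-Control to 14.5 ± 5.9 CPM in MSR-dCas9-Activator at 12 h (SD, n = 3), by 2.62 ± 0.17 on the log2 scale. Ccnb3, a cyclin chiefly known from meiosis, rose most, from near 0 counts (0.03 ± 0.01 CPM) to 4.60 ± 0.65 CPM. Cdk2, the partner of cyclins E and A, fell by 2.05, Cdc25a by 1.74 and Wee1, which inhibits CDK1, by 0.91.

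Of 13 mitotic kinases and their activators, 8 were lower and 3 higher at 12 h (median -0.58), and 9 lower and 1 higher at 24 h (median -0.57), beside 34.1% of all genes lower and 41.1% higher at 12 h and 29.4% and 34.5% at 24 h. Mastl, the kinase that restrains the phosphatase PP2A in mitosis, fell from 56.3 ± 1.0 to 17.2 ± 0.62 CPM at 12 h, by 1.71 ± 0.08. Nek2, a centrosomal kinase, rose from 75.4 ± 3.0 to 115.4 ± 15.4 CPM, by 0.60 ± 0.13, though on the mitochondrial scale none of the 13 was higher and 11 were lower (28.1% and 48.5% of all genes). Tpx2, which activates Aurora A, was at 0.01 and did not pass.

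Of 24 APC/C subunits and ubiquitin ligase genes, 14 were lower and 5 higher at 12 h and 15 lower and 1 higher at 24 h (median -0.28 and -0.39), where all genes had 34.1% and 41.1%, then 29.4% and 34.5%. This list depended most on scale, with 8 lower and 9 higher at 12 h under DESeq2 size factors (28% and 46.8% of all genes) and 19 lower and 0 higher on the mitochondrial scale (48.5% and 28.1%). Fbxw7, the substrate receptor that marks cyclin E for destruction, fell from 27.1 ± 2.2 to 10.7 ± 2.9 CPM at 12 h, by 1.34 ± 0.17. Anapc7, an APC/C subunit, rose from 55.0 ± 1.8 to 81.1 ± 3.0 CPM, by 0.56 ± 0.08 on the TMM scale, though no gene of this list was higher on the mitochondrial scale.

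Of 23 cell cycle transcription factors and their partners, 17 were lower and 5 higher at 12 h (median -0.63), and 17 lower and 3 higher at 24 h (median -0.53), against 34.1% and 41.1% of all genes at 12 h and 29.4% and 34.5% at 24 h. Scaled to mitochondrial mRNAs, 18 were lower and 2 higher at 12 h (48.5% and 28.1% of all genes). E2f2, an activator of S phase genes, fell from 11.2 ± 0.71 to 2.96 ± 0.20 CPM at 12 h, by 1.91 ± 0.17, and Lin52, a MuvB subunit, rose from 8.75 ± 0.43 to 19.6 ± 2.1 CPM, by 1.16 ± 0.13. Mybl2 fell by 1.16 and Foxm1 by 0.75, both of them factors of mitotic gene expression. The members' own median was -0.50 at 12 h and -0.69 at 24 h, between those of these lists at 12 h and the lowest at 24 h.

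**Figure D5:**
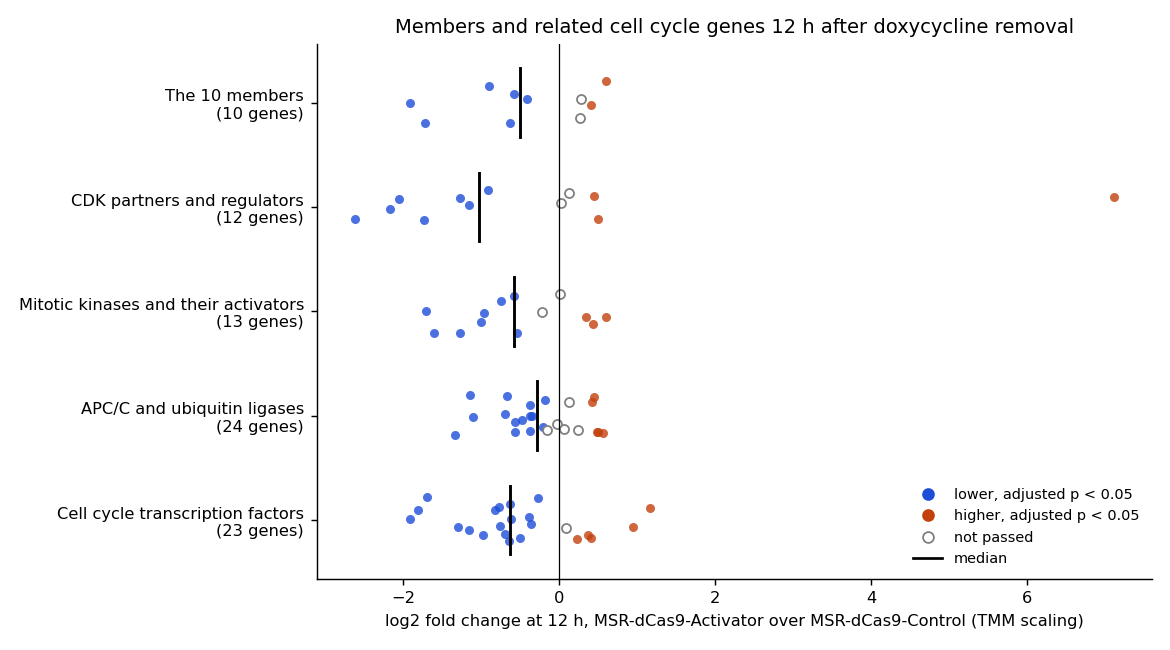
Difference between the lines at 12 h for the 10 members and 4 lists of related genes, as log2 fold change of MSR-dCas9-Activator over MSR-dCas9-Control on the TMM scale. Each point is a gene (blue lower, orange higher, open not passed) and black bars are medians. The medians lie between -1.03 and -0.28, most genes are lower, and Ccnb3, near 0 counts in MSR-dCas9-Control, stands alone far to the right. On the mitochondrial scale the 3 higher mitotic kinases are no longer higher.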

How the data were processed

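RNA from 36 libraries of MEF cells was measured by stranded total RNA sequencing, and the labels number the replicates 1 to 3. The authors trimmed reads with cutadapt 1.8.1, aligned them to GRCm38 with STAR 2.5.2b and used TEtranscripts 2.0.3 to count reads on genes and repeats, and deposited raw counts without normalisation. The annotation release and strand setting are not given in the sources used here. The table holds 54842 genes, of which 54495 matched GENCODE M21, 1561 repeat families, which were not used here, and 1 unnamed entry, left out (at most 0.00452% of a library's counts). With 27376846 to 57371803 gene counts per library, counting error is small beside the spread between replicates.

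Analyses used R 4.3.3 with edgeR 4.0.16 (filterByExpr, TMM, robust quasi-likelihood F test), and DESeq2 1.42.0 as an alternative. One fit held all 36 libraries by line and time point with the replicate number, which the study's design formula includes. Standard errors were derived from each fold change and its F statistic. Adjusted p-values are Benjamini-Hochberg over 28536 genes. They set a difference against the spread between replicates of these lines and do not cover lines made independently. CPM were computed from gene counts with TMM factors. Ratios were compared with exact permutation tests in scipy 1.17.1. All 10 members were named, with the largest rise and largest fall of each list at 12 h among genes that passed, and the genes most correlated with the members; Cdk2, Cdc25a, Wee1, Tpx2, Mybl2 and Foxm1 were chosen after their values were seen. Members and lists were chosen with earlier results of these data known. The model was tested on simulated data with few genes changed, in a single group, and no replicate effect. That test does not cover shifts of as many genes as were called here. Alternatives covered scaling, the filter, the test, the block, the libraries in the fit and leaving out replicates or libraries.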

Additional observations from a re-analysis of the deposited data

Results flagged for a closer look

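The change from uninduced cells, or from 12 to 24 h, differed between the lines in edgeR's quasi-likelihood interaction test (adjusted p under 0.05) for the members below. Values are the change in MSR-dCas9-Activator less that in MSR-dCas9-Control on the log2 scale with TMM factors. From uninduced to induced cells Cdk1 differed by 0.58, Cdc25c by 0.55 and Aurka by 0.67. From uninduced cells to 12 h Ccne1 differed by -1.48, Ccne2 by -0.47, Ccna2 by -1.62, Plk1 by -0.68, Ccnb2 by 0.58, Cdc25c by 0.57 and Aurka by 0.56. From uninduced cells to 24 h Ccne1 differed by -0.47, Ccna2 by -1.30, Ccnb1 by -0.85, Cdk1 by -0.76 and Plk1 by -1.13. From 12 to 24 h Ccne1 differed by 1.02, Ccne2 by 0.42, Ccnb1 by -0.53, Ccnb2 by -0.77, Cdc25c by -0.90 and Aurka by -0.67. On the mitochondrial scale the 12 h values of Ccnb2, Cdc25c and Aurka were below 0. No cause was tested.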

How the results depend on the processing

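Falls of Ccne1 and Ccna2 from induction on passed under all 6 other settings. So did those of Cdk1 and Plk1 at 12 and 24 h, Ccne2 at 12 h and Ccnb1 at 24 h. The 6 settings were DESeq2 size factors, mitochondrial scaling, no filter, no replicate block, the libraries of the time point alone and DESeq2. The call of Ccna2 upon induction was lost on leaving out a replicate of every group. Counting error is small at this depth, and 3 replicates with Activator replicate 2 apart limit the rest. The cause of the changes below was not tested. Sign changes are listed where the result passed with TMM or in the other setting. With mitochondrial scaling 12 further results changed sign and passed in neither. Among these were the differences between the lines upon induction of Ccne2 (-0.17), Cdk1 (-0.069) and Cdc20 (-0.060). On the mitochondrial scale differences between the lines turned below 0 upon induction for Ccnb1 (-0.072) and Plk1 (-0.32), at 3 h for Ccnb1 (-0.13), Cdk1 (-0.25), Cdc20 (-0.059) and Plk1 (-0.37), at 6 h for Ccnb1 (-0.45), Cdk1 (-0.50), Cdc20 (-0.41), Cdc25c (-0.088) and Aurka (-0.027), and at 12 h for Ccnb2 (-0.035), Cdc20 (-0.36), Cdc25c (-0.22) and Aurka (-0.35). So did changes from uninduced cells in MSR-dCas9-Activator, upon induction for Ccne2 (-0.36), Ccnb1 (-0.16), Ccnb2 (-0.23), Cdk1 (-0.013), Cdc20 (-0.42) and Plk1 (-0.26), at 3 h for Ccne2 (-0.54), Ccnb2 (-0.0015), Cdc20 (-0.17) and Plk1 (-0.21), at 6 h for Ccnb1 (-0.37), Ccnb2 (-0.26), Cdk1 (-0.32), Cdc20 (-0.54) and Plk1 (-0.71), and at 12 h for Ccnb2 (-0.029), and the difference in change at 12 h for Ccnb2 (-0.089), Cdc25c (-0.10) and Aurka (-0.12). On leaving out a replicate of every group, Plk1 at 6 h ranged from -0.22 to 0.27, and Cdc25c at 24 h against uninduced cells in MSR-dCas9-Activator from -0.28 to 0.20, both highest without replicate 2.

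The count of members that passed in uninduced cells fell to 0 with library size, mitochondrial scaling, no filter, no replicate block or the libraries of the time point alone. Mitochondrial scaling gave 3 upon induction and 4 at 3 h between the lines, 5 at 3 h within MSR-dCas9-Activator, 0 from 12 to 24 h in MSR-dCas9-Control, and 1 (induction) and 3 (12 to 24 h) for the difference in change. Without the filter the last was also 3. DESeq2 gave 1 for MSR-dCas9-Control at 24 h. Under the study's limits 6 and 4 CDK partners, 4 and 3 mitotic kinases, 3 and 1 APC/C genes and 6 and 5 transcription factors passed at 12 and 24 h.

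Leaving out replicates or libraries gave 0 to 1 members between the lines in uninduced cells, 1 to 8 upon induction, and 5 to 9, 4 to 9, 7 to 9 and 5 to 9 at the 4 washout times in turn. Within MSR-dCas9-Activator it gave 2 to 8, 7 to 8, 4 to 10, 6 to 8 and 6 to 7 from induction to 24 h and 3 to 8 from 12 to 24 h, and in MSR-dCas9-Control 0 to 0 throughout. For the difference in change it gave 0 to 7 (induction), 3 to 8 (12 h), 2 to 5 (24 h) and 0 to 8 (12 to 24 h), and for the additive model 4 to 6.

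Replicates with the same number correlated at -0.0155 to 0.486 between the lines (16 of 18 over 0.1, and all at 4 of the 6 time points), others at -0.405 to 0.122 (1 of 36 over 0.1), a hint from the data that the numbers pair the samples. Replicate 2 at 12 and 24 h fell short of 0.1 and did not correlate best with its own number in each case, and no label says what a number marks, so pairing is not established. Without the replicate block 3 members passed upon induction, 0 from 12 to 24 h in MSR-dCas9-Control, and 0 (induction) and 3 (12 to 24 h) for the difference in change. Of 160 results 139 kept their direction and side of the threshold without the block and 21 no longer passed.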
